A study of Mus musculus with 2 samples.

Results

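The genes of the aminoacyl-tRNA synthetases, the enzymes that load amino acids onto transfer RNA, were described in bone marrow stem and progenitor cells of a mouse myelodysplastic syndrome (MDS) after decitabine (DAC) or phosphate-buffered saline (PBS). Members were chosen by gene symbol and not by their values: the symbols of the cytoplasmic and mitochondrial synthetases, and the genes of 3 scaffold proteins that hold cytoplasmic synthetases together. The rule found 40 genes, read by 50 probes, among 34786 genes or transcripts read by 55680 probes. They were 20 cytoplasmic enzymes, 17 mitochondrial enzymes and the 3 scaffold genes Aimp1, Aimp2 and Eef1e1. A gene counted as measured if its brightest probe was called well above background on both arrays. By that filter on dim probes 37 of the 40 were measured (19 cytoplasmic, 15 mitochondrial and 3 scaffold), among 18211 genes measured in all. The cytoplasmic tyrosine enzyme Yars and the mitochondrial asparagine and tryptophan enzymes Nars2 and Wars2 were not.

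The DAC array and the PBS array each held RNA from sorted LSK cells, the fraction of bone marrow that lacks lineage markers and carries Sca-1 and c-Kit, which holds haematopoietic stem cells and multipotent progenitors. Both groups were of the strain C57BL/6 and of the genotype Tet2KD/KD Ezh2Δ/Δ, so altered alleles of Tet2, whose enzyme oxidises methylated cytosine, and of the histone methyltransferase gene Ezh2 were common to control and treated cells. The cells carried a transplanted MDS and were taken from secondary recipients 10 weeks after transplantation. The labels add 7 weeks to DAC or, in the control group, to PBS. They do not say whether this was time on treatment or time after it. DAC is an analogue of cytosine that inhibits DNA methylation. Each group had 1 array. How many mice were pooled on an array, their age, the dose of DAC, and whether recipient cells could enter the sorted fraction are not given by the labels.

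Each synthetase recognises 1 amino acid and the transfer RNAs for it, and the charged transfer RNA then carries the amino acid to the ribosome. Mitochondria translate their own genome and use a separate set of synthetases, which are encoded in the nucleus, although the glycine and lysine enzymes of both compartments come from the same genes, Gars and Kars. In the cytoplasm a subset of the enzymes is bound in the multi-tRNA synthetase complex. When an amino acid is short, uncharged transfer RNA activates the kinase GCN2, phosphorylation of the initiation factor eIF2alpha follows, and the transcription factor ATF4 is made, which raises amino acid synthesis, transport and several cytoplasmic synthetases. Haematopoietic stem cells are known for a low rate of protein synthesis.

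The probes on which most of the results below turn are shown as they were printed on the array, 60 bases long and 5′ to 3′ in the sense of the transcript. They were picked after their values had been seen, and no letters are in capitals because no part was singled out. The Wars probe lies at chr12:110104366-110104425 (mm9, minus strand) and starts at base 1036 of the transcript. The Cars2 probes lie at chr8:11547757-11547816 and chr8:11516152-11516211 (minus strand) and start at bases 352 and 1407. The Farsa probe spans chr8:87391534-87391694 (plus strand) and the Farsb probe chr1:78440318-78451340 (minus strand). These last genomic spans of 161 and 11023 bases exceed the probe length, so both probes cross exon borders.
Wars: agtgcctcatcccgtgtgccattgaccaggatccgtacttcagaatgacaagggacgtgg
Cars2, base 352: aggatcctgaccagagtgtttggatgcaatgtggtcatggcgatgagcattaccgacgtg
Cars2, base 1407: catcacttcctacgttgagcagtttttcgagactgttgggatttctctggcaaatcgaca
Farsa: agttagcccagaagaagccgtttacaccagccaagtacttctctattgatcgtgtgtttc
Farsb: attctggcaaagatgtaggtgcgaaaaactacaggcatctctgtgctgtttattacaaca

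Values are given as the processed intensity of the probe on each array, in the scanner's arbitrary units, followed by the log2 difference DAC minus PBS after each array was scaled to its own 75th percentile. The DAC array was the brighter one, with that percentile at 813 against 618 on the PBS array, so equal intensities correspond to a log2 difference of about −0.40. Of all probes 56.8% (DAC) and 48.5% (PBS) were well above background, and 0 spots were saturated. Without a replicate array, error was estimated only from probes printed 10 times, over which a log2 difference had an SD of 0.32 in the lowest, 0.15 in the middle and 0.09 in the highest tertile of the signal. It covers spots and not animals, sorting or amplification, and no test was possible. The sorting gate genes Kit and Ly6a, the latter encoding Sca-1, and the progenitor genes Cd34 and Flt3 were measured on both arrays with differences of 0.12, 0.07, −0.30 and −0.24, the last beside −1.36 on another Flt3 probe. All 8 progenitor markers of the list were measured, and they ranged from −0.60 for Cd48 to 0.69 for Gfi1. In bulk RNA, fewer cells of a type and less RNA per cell cannot be told apart.

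Most synthetase genes differed little between the arrays. At 2-fold, 3 of the 37 measured genes (8.11%) differed, beside 16.9% of all measured genes, and 34 lay within 2-fold. Higher were the tryptophan enzyme Wars and the mitochondrial cysteine enzyme Cars2, 2 of 37 beside 10.0% of all genes, and lower was the cytoplasmic cysteine enzyme Cars, 1 of 37 beside 6.84%. The split depended on the scaling: scaling over all probes gave 1 member higher (Wars) and 2 lower (Cars and the alanine enzyme Aars), and 1329 genes higher and 1850 lower over all genes, against 1824 and 1245. Just inside the 2-fold line lay Farsb and Aars2, both at 0.93, and Aars at −0.93. At 1.5-fold, 7 members were higher and 5 lower, which is 32.4% of the measured members beside 35.9% of all genes.

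The median difference of the 37 genes was 0.07 with an SD of 0.63, beside 0.02 and 0.81 over all measured genes. Of them 20 were higher and 17 lower at any size, so 54.1% were higher, beside 51.4% of all genes. Loess moved the median of all genes by −0.028 and the other scalings by −0.11 to −0.20, and the members' median turned negative under each, to −0.13 when scaled over all probes (13 higher, 24 lower). Set against the median of all genes, the members' median lay between −0.07 and 0.18 in every way of processing tried. The differences given from here on use the scaling to the 75th percentile. Quantile normalization and loess act by signal and did not lower every gene: Gars went from −0.32 up to −0.14 and −0.16. Scaling over all probes, by the median or with the series matrix values lowers each difference by 0.16 to 0.20. Because these last shifts are downward, a negative sign kept under them says less than a positive one.

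**Figure D1:**
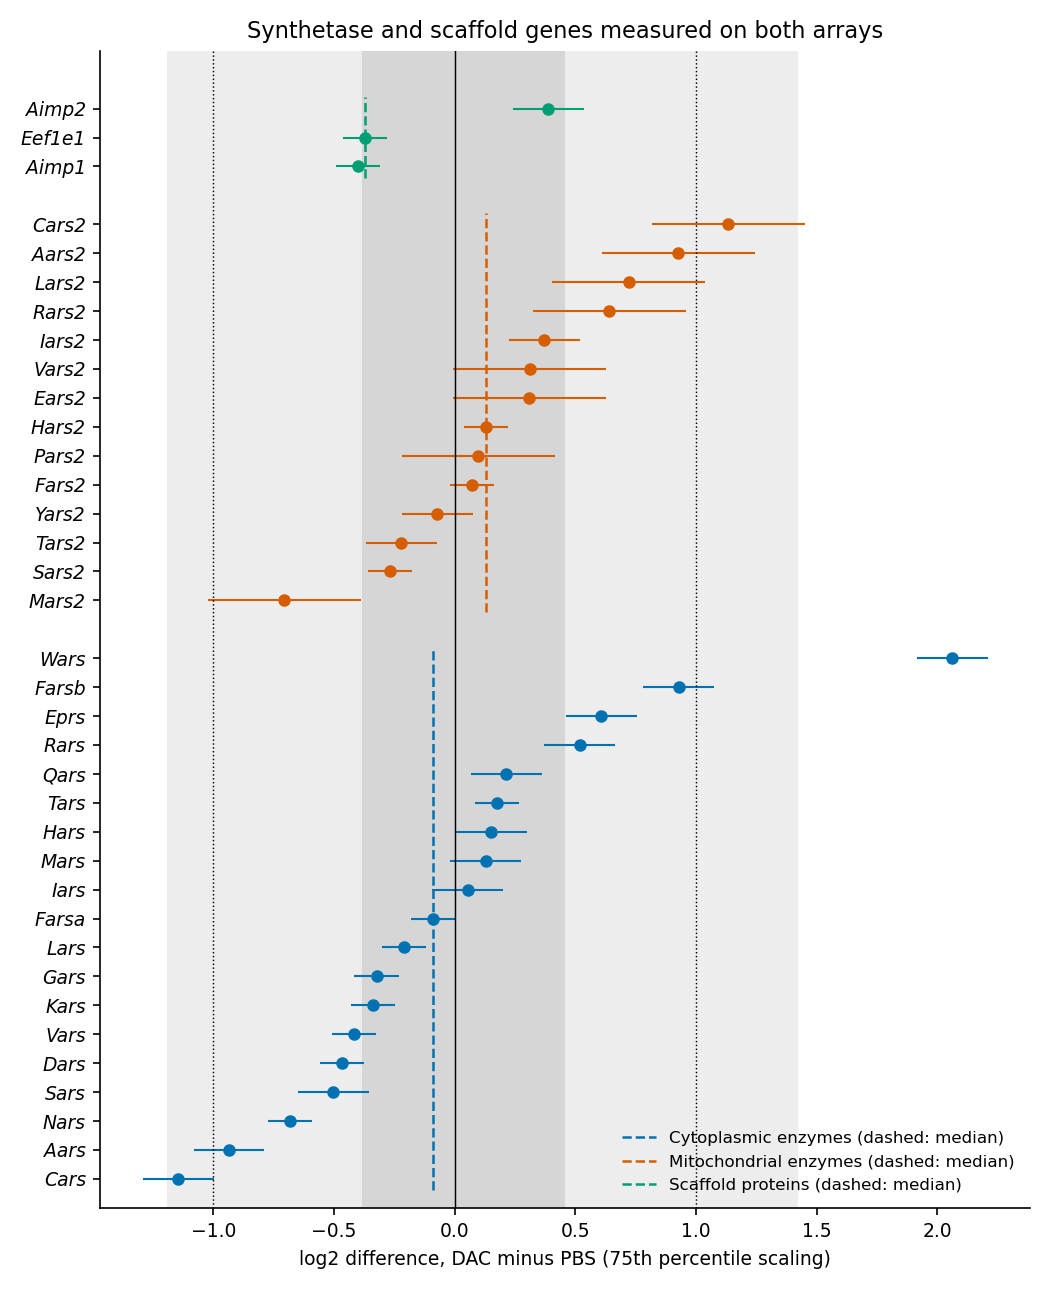
The log2 difference DAC minus PBS of the measured genes is plotted by class, except for 1 gene that is not reported here, with bars for the spot-level SD, dashed lines at class medians, dotted lines at 2-fold, and grey bands for the middle 50% (dark) and middle 90% (light) of all measured genes. Wars at 2.06, Cars2 at 1.13 and Cars at −1.15 lie beyond the dotted lines, and the scaffold and cytoplasmic medians lie below 0 and the mitochondrial median above it, which turns negative, to −0.071, when the arrays are scaled over all probes.

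Among the cytoplasmic enzymes, Wars stood out. Its brighter probe (NM_011710) read 1157 with DAC and 211 with PBS, a log2 difference of 2.06 or 4.17-fold, and 98.4% of all measured genes had a lower difference. Wars makes tryptophanyl-tRNA and is known as a gene induced by interferon gamma. The other Wars probe, at chr12:110098245-110098304 and starting at base 2766, read 249 and 226, a difference of −0.25. The array annotation lists 1 RefSeq transcript for the brighter probe and 3 for the other. The mean over both probes was 0.90, which ends the 2-fold call, while Wars was past 2-fold in the other 11 of 12 ways of processing. Those 11 include changes of the filter on dim probes, which repeat the value of 2.06.

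Cars, which charges cysteine, was the member lowest on the DAC array relative to PBS. Its only probe (NM_013742, chr7:150743615-150743674, mm9) read 142 with DAC and 239 with PBS, a difference of −1.15 or 2.21-fold lower. It was past 2-fold in 9 of 11 ways of processing, between −1.35 and −0.91. Normexp background correction and no background subtraction took it inside. The 9 include looser filters on dim probes and the mean over probes, which repeat the value of −1.15. Aars, which charges alanine, read 164 and 239 on its measured probe, a difference of −0.93 that passed 2-fold in 5 of 11. Its second probe was not well above background on either array. The asparagine enzyme Nars read 591 and 720 (−0.68) and the serine enzyme Sars 403 and 433 (−0.50). All 4 of these kept a negative sign in every way of processing.

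On the higher side, Farsb encodes the beta subunit of phenylalanyl-tRNA synthetase and Farsa the alpha subunit, which together form the cytoplasmic enzyme. Farsb (NM_011811) read 711 and 284, a difference of 0.93. Farsa read 1848 and 1495 on its brightest probe, a difference of −0.09, and 1313 and 424 on the exon-crossing probe shown above, a difference of 1.23. On the brightest probes Farsb was thus higher and Farsa near 0, while on the second Farsa probe the difference of Farsa exceeded that of Farsb. The remaining Farsa probe was above background only with DAC, with a bound of at least 1.29-fold higher.

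The 8 enzymes of the multi-tRNA synthetase complex lay close together. Their median was 0.09 (−0.11 when scaled over all probes), their range −0.47 to 0.61, and 0 of 8 passed 2-fold. The bifunctional glutamate and proline enzyme Eprs read 237 and 118 (0.61) and the arginine enzyme Rars 546 and 290 (0.52), both higher in every way of processing. The glutamine enzyme Qars had a difference of 0.21, the methionine enzyme Mars (now named Mars1) of 0.13 and the isoleucine enzyme Iars of 0.05, the last pair turning negative when scaled over all probes. The leucine enzyme Lars (−0.21), the lysine enzyme Kars (−0.34) and the aspartate enzyme Dars (−0.47, read as 612 and 643) were lower. The 11 measured cytoplasmic enzymes outside the complex had a median of −0.32, negative in every way of processing, and ranged from −1.15 to 2.06, with 2 of 11 (18.2%) past 2-fold, near the 16.9% of all genes. The other members among them were the threonine enzyme Tars (0.17), the histidine enzyme Hars (0.15), Gars (−0.32) and the valine enzyme Vars (−0.42).

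Gars and Kars, which serve both compartments, were also the brightest probes of the set on either array. Gars read 5530 and 5257, a difference of −0.32, and Kars read 4886 and 4693, a difference of −0.34. Brightness of different probes does not rank the genes, since probes bind with unequal strength. Both differences were negative in every way of processing. All measured genes in the highest tertile of the signal had a median of −0.13, against 0.12 in each of the other tertiles.

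The scaffold genes did not move together. Aimp2, which encodes the scaffold protein p38, read 443 and 257, a difference of 0.39. Aimp1, which encodes p43, read 687 and 688, and Eef1e1, which encodes p18, read 730 and 717, with differences of −0.40 and −0.37. All 3 kept their sign in every way of processing, and none was past 2-fold in any. Counting enzymes and scaffold together, the 11 genes of the complex had a median of 0.05, the value of Iars, which turns negative when scaled over all probes, and a range of −0.47 to 0.61.

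**Figure D2:**
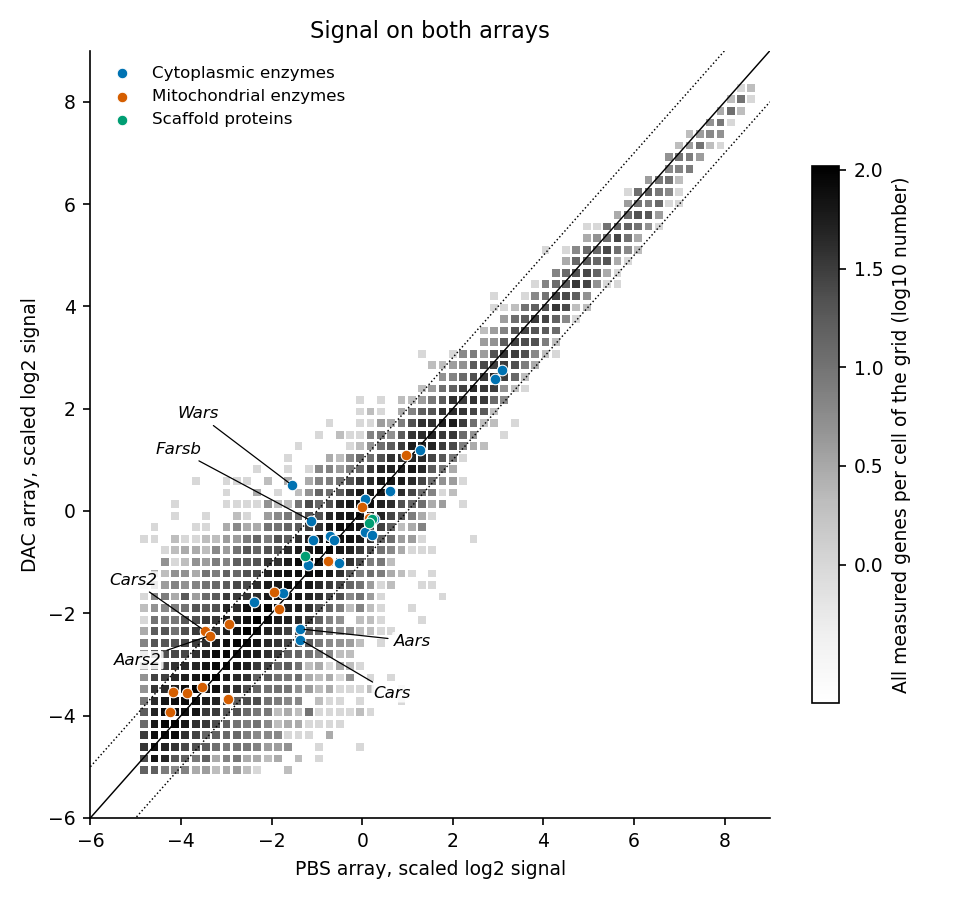
The scaled log2 signal of each measured gene on the PBS array (horizontal) is plotted against the DAC array (vertical), with all 18211 genes as a grey grid shaded by the number of genes per cell, the synthetase and scaffold genes (except 1) as coloured points, the diagonal solid and the 2-fold lines dotted. Most members follow the diagonal within the dotted lines, Gars and Kars are at the top right of the members, and the mitochondrial genes are mostly at the lower left, where the grey cloud is widest.

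Among the mitochondrial enzymes, Cars2 was the gene past 2-fold. Its brighter probe (NM_024248, base 352) read 160 with DAC and 55.5 with PBS, a difference of 1.13 or 2.19-fold. Its second probe (base 1407) read 125 with DAC and 19.7, not well above background, with PBS, which gives a bound of at least 4.70-fold higher. The probes thus pointed the same way. The signal was low, and Cars2 was past 2-fold in 4 of 11 ways of processing. All 4 gave the same 1.13, since looser filters on dim probes and the mean over probes leave its 1 measured probe unchanged. Cars2 was within 2-fold under each other scaling and background treatment, and fell to 0.50 at its lowest.

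The mitochondrial alanine enzyme Aars2 read 150 and 60.1 (0.93), the leucine enzyme Lars2 176 and 81.1 (0.72) and the arginine enzyme Rars2 70.4 and 34.3 (0.64). These genes were higher in every way of processing, although by as little as 0.39, 0.32 and 0.08. At the other end, the methionine enzyme Mars2 read 63.7 and 78.9 (−0.70), and quantile normalization put it past 2-fold, at −1.08. All 4 were dim, where the spot-level SD was 0.32. The serine enzyme Sars2 (−0.27), the threonine enzyme Tars2 (−0.22) and the tyrosine enzyme Yars2 (−0.07) were lower in every way of processing. The isoleucine enzyme Iars2 (0.37), the valine enzyme Vars2 (0.31), the glutamate enzyme Ears2 (0.31), the histidine enzyme Hars2 (0.13), the proline enzyme Pars2 (0.10) and the phenylalanine enzyme Fars2 (0.07) changed sign in at least 1 way of processing.

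The members that were not measured give bounds or nothing. Wars2 read 45.3 with DAC, above background, and 18.8 with PBS, not above it, which gives a bound of at least 1.70-fold higher. Yars read 26.8 and 8.11 and Nars2 9.84 and 4.96, and neither was well above background on either array, so no fold is given. Tryptophan, tyrosine and asparagine enzymes could therefore not be compared between the compartments.

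As a class, the 15 measured mitochondrial enzymes had a median of 0.13, with 10 higher and 5 lower, and the 19 cytoplasmic ones a median of −0.09, with 9 higher and 10 lower. The mitochondrial median turned negative in 7 ways of processing, and the cytoplasmic one turned positive (0.055) as the mean over probes. The medians differed by 0.22, with the cytoplasmic one lower, and by 0.08 without Gars and Kars. Quantile normalization reversed the order, with the cytoplasmic median higher by 0.09. The classes also differed in brightness. Of the mitochondrial enzymes 9 were in the lowest tertile of the signal, with a median of 0.31, 3 in the middle tertile (−0.07) and 3 in the highest (0.07). Of the cytoplasmic enzymes 0 were in the lowest tertile, 11 in the middle one (0.15) and 8 in the highest (−0.33). Over all genes, 22.7% in the lowest, 22.1% in the middle and 5.80% in the highest tertile were past 2-fold. The part of signal in the class difference was not tested.

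The enzymes for the same amino acid were set side by side for the 15 of 18 pairs measured in both compartments. The mitochondrial gene had the higher difference in 8 pairs and the lower one in 7, and the median of mitochondrial minus cytoplasmic was 0.12. Eprs stood in both the glutamate and the proline pair, and Fars2 in both phenylalanine pairs, so the 15 are not all separate comparisons. For cysteine the genes went opposite ways, Cars at −1.15 and Cars2 at 1.13, which are 2.28 apart, the widest gap of the 15. For alanine they did so too, Aars at −0.93 and Aars2 at 0.93, 1.86 apart. These were the 2 pairs more than 2-fold apart. Leucine (0.93) and valine (0.73) followed with the mitochondrial gene higher. The widest gaps the other way were those of Fars2 against Farsb (−0.86) and of Mars2 against Mars (−0.83). Opposite signs were found in 7 pairs, in 5 of them with the mitochondrial gene higher on the DAC array and the cytoplasmic one lower. Which pairs were opposite depended on the scaling. Scaled over all probes, both genes were lower for Farsa and Fars2 (−0.29 and −0.13), Tars and Tars2 (−0.03 and −0.42), and Mars and Mars2 (−0.07 and −0.91). Iars and Iars2 (−0.15 and 0.17), Eprs and Pars2 (0.41 and −0.11), and Farsb and Fars2 (0.73 and −0.13) became opposite. Arginine and glutamate were among the pairs with both genes higher, and serine among those with both lower. Hars and Hars2, the only members that neighbour each other in the genome, had differences of 0.15 and 0.13.

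**Figure D3:**
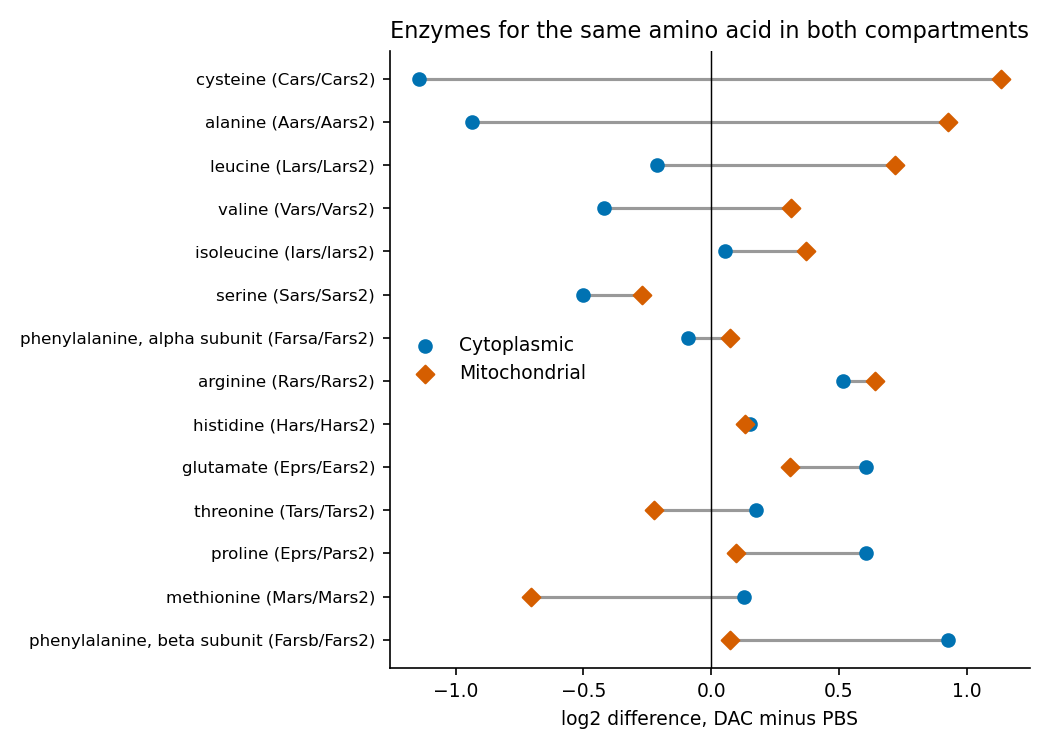
Each line joins the log2 difference DAC minus PBS of the cytoplasmic enzyme (circle) and the mitochondrial enzyme (diamond) for 1 amino acid or subunit, in the order of the gap, with 1 pair not drawn. Cysteine (−1.15 and 1.13) and alanine (−0.93 and 0.93) have the longest lines, histidine (0.15 and 0.13) the shortest.

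How far a gene's value rests on 1 probe could be read in the 9 members with several probes, while 31 members had 1. In 5 of the 9 a second probe was measured, and in 3 of those 5 the probes had opposite signs. Wars differed by 2.06 on one probe and by −0.25 on the other, Farsa by −0.09 and 1.23, and Iars2 by 0.37 (273 and 160) and −0.82 (94.7 and 127). Pars2 (0.10 and 0.53) and Tars2 (−0.22 and −0.16) had probes of the same sign. Vars2 had a second probe that was above background only with DAC, which read 221 against 6.73 and gives a bound of at least 8.29-fold higher, beside 0.31 on the probe that stands for the gene. Such disagreement was common on these arrays: of 4655 genes with a second measured probe 38.7% had opposite signs on it, and of 797 such genes past 2-fold on the brightest probe 31.7% were past 2-fold the same way on the second.

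**Figure D4:**
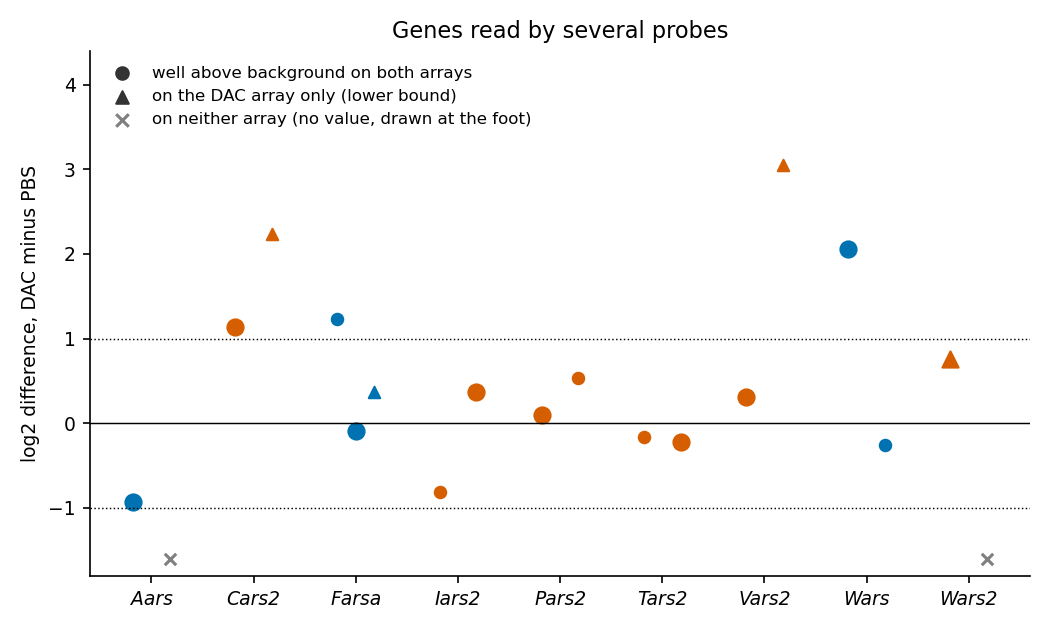
Every probe of the 9 genes with several probes is shown by its log2 difference DAC minus PBS, in the order of its start in the transcript it is assigned to; circles were well above background on both arrays, triangles on the DAC array only and are lower bounds, crosses on neither and carry no value, and the larger symbol is the probe that stands for the gene. Wars, Farsa and Iars2 have circles on both sides of 0, and the triangles of Cars2 and Vars2 lie above the 2-fold line.

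Synthetases fall into classes I and II, which have unrelated catalytic folds. Of the 18 class I members 16 were measured, with a median of 0.26 (−0.0032 with quantile normalization), 11 higher and 5 lower. At 2-fold 3 of these 16 (18.8%) differed, Wars, Cars2 and Cars, which is near the 16.9% of all genes. Of the 18 class II members 17 were measured, with a median of −0.22, negative in every way of processing, 7 higher and 10 lower. At 2-fold 0 of these 17 differed, though up to 2 were lower under other scalings. The highest class II members were Farsb and Aars2, both at 0.93, and the lowest was Aars.

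Promoters were read because several cytoplasmic synthetases are known targets of ATF4, which binds with C/EBP proteins at the C/EBP-ATF response element. RefSeq promoters of the assembly GRCm38.p6, from 250 bases before to 50 after the start, matched 30 of the 40 members. The letters TGATGNAA, searched on both strands, were found in 5 of 13 matched cytoplasmic enzymes and 0 of 14 mitochondrial ones, beside 3.97% of 32851 promoters. For these and all other letters searched, a member counted if any of its promoters held them. The share of all promoters counts each promoter singly, so these are unlike units. No match overlapped a match to another motif searched. The windows are shown with the matched letters in capitals, as their reverse complement where the match is on the opposite strand, and with the position of the first of these letters counted from the start as base 0. Windows reaching past the start are kept to 30 bases.
Aars, base −112 (chr8:111033704-111033763, plus strand): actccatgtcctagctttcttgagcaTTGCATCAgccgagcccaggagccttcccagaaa
Aars, base 9 (chr8:111033840-111033869, plus strand): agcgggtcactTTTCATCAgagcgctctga
Gars, base −30 (chr6:55037945-55038000, plus strand): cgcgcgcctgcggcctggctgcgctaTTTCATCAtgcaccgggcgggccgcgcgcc
Iars, base 7 (chr13:49682126-49682155, plus strand): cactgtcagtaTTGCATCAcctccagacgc
Tars, base −15 (chr15:11399659-11399699, minus strand): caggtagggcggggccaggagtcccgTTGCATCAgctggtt
Yars, base 3 (chr4:129189895-129189924, plus strand): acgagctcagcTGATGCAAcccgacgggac

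The genes with these letters did not share a direction. Aars was at −0.93, Gars at −0.32, Iars at 0.05 (negative when scaled over all probes) and Tars at 0.17 (likewise), and Yars was not measured. The letters GCGCATGC, the core bound by the mitochondrial regulator NRF1, were found in the promoters of Rars2, Vars2 and Wars2 and in 0 of 13 cytoplasmic enzymes, beside 2.71% of all promoters. A match is a description of letters and not of a bound site. The promoters of Wars and Cars, 2 of the 3 genes past 2-fold, were not among those matched. A list of 12 synthetases known as ATF4 targets had 11 measured members with a median of −0.21, negative in every way of processing, 5 higher and 6 lower. Of these 11, 18.2% were past 2-fold, Wars higher and Cars lower, beside 16.9% of all genes.

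The amino acid response genes were mostly within 2-fold. Atf4 read 13474 and 7355 on its brightest probe, a difference of 0.48, and −0.58 on its other probe. Of 34 listed genes 25 were measured, with 18 higher and 7 lower, beside 51.4% of all genes higher. Their median was 0.19, beside 0.02 over all genes, and it was −0.016 beside −0.18 when scaled over all probes. Asns, the asparagine synthetase gene and a standard ATF4 target, was past 2-fold, at 409 and 153 (1.03). Thus 1 of 25 (4%) was higher and 0 lower, beside 16.9% of all genes past 2-fold. Scaling over all probes lowers every difference by 0.20 and takes Asns inside. Nupr1, a stress-induced chromatin protein gene, was above background only on DAC, with a bound of at least 4.82-fold higher. Gpt2, an alanine aminotransferase gene, was above background only on PBS, and its signal with DAC was at least 24.5-fold lower. Among 8 genes of the eIF2alpha kinases and their partners 6 were measured, 0 past 2-fold, with a median of 0.15 (−0.055 when scaled over all probes). Eif2ak4, which encodes GCN2, read 92.4 with DAC and 7.82 with PBS, the latter not above background, which gives a bound of at least 3.46-fold higher.

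Single genes that act beside the synthetases had larger differences, while the shares past 2-fold lay on both sides of that of all genes. Of 13 synthetase-related genes 12 were measured, 2 higher and 1 lower at 2-fold (25%, beside 16.9% of all genes). Their median was 0.16 (−0.038 when scaled over all probes). Sepsecs, which makes selenocysteinyl-tRNA from a serine-charged precursor, read 206 and 35.9 (2.13), and the peptidyl-tRNA hydrolase gene Ptrh2 114 and 41.2 (1.08, inside 2-fold when scaled over all probes). Gatb, a subunit of the mitochondrial enzyme that converts glutamate to glutamine on transfer RNA, read 631 and 1621 (−1.76), with −0.18 on its other probe. Of 31 genes of transfer RNA maturation and export 29 were measured, 3 higher and 1 lower at 2-fold (13.8%, beside 16.9% of all genes). Their median of 0.10 was negative in 9 of the 11 alternatives, and up to 5 were lower at 2-fold under other scalings. Among the higher ones were the ribonuclease P subunit gene Rpp30 (193 and 27.7, a difference of 2.40) and the deaminase gene Adat2 (315 and 96.0, 1.32). Lower was the ribonuclease P subunit gene Rpp14 (516 and 975, −1.32), so that subunits of the same enzyme went opposite ways. Trdmt1, a transfer RNA methyltransferase gene of the Dnmt2 family, read 384 and 517 (−0.82).

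Translation elongation factors, which carry charged transfer RNA to the ribosome and move it along, had 9 of 10 genes measured. At 2-fold 0 were higher and 1 lower (11.1%, beside 16.9% of all genes). Their median was −0.33, negative in every way of processing. Of the 9, 8 were lower and 1 higher at any size, beside 51.4% of all genes higher, and the scalings gave 0 to 3 higher. Gfm1, a mitochondrial factor, read 112 and 229 (−1.43). The cytoplasmic factor Eef1a1, which binds charged transfer RNA, read 31450 and 30028, a difference of −0.33, near those of Gars and Kars. All measured genes in the highest tertile of the signal had a median of −0.13.

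Markers of cell types outside the gate were set beside these values, as the sum of processed intensity over each list. Erythroid markers summed to 2578 with DAC and 2177 with PBS (8 of 11 measured), and mature myeloid markers to 50418 and 53714 (10 of 12). These sums hide differences between genes. Of the erythroid markers 2 were higher and 6 lower after scaling, with a median of −0.41, and 1 (12.5%) was past 2-fold, higher. Of the myeloid markers 3 were higher and 7 lower, with a median of −0.40. At 2-fold 1 was higher and 2 lower (30%, beside 16.9% of all genes). Itgam made up most of the myeloid sum (40456 and 44994). B cell markers summed to 5014 and 2395 (5 of 6, with Ms4a1 not above background on either). T and NK cell markers summed to 812 and 550 (2 of 7, with Cd3g and Cd8a not above background on either). Cd4 made up most of that sum (634 and 347). Cd3d went the other way, at 12.2 with DAC, not above background, and 77.1 with PBS, a bound of at least 4.51-fold lower. Ncr1 likewise passed the background call with PBS alone, and Klrb1c with DAC alone. The B cell sum differed more between the arrays than the 75th percentile did. The T and NK cell sum did so beside the percentile used for scaling (813 and 618). Beside the percentile over all probes (212 and 140) it differed less. Most of the B cell sum came from Cd79a, a B cell receptor component gene (3088 and 1390), while the B cell transcription factor gene Ebf1 was lower with DAC (−1.08). The part of these markers in the synthetase differences was not tested.

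The way of processing decided the sign of small differences. Of the 37 genes 26 kept their sign in every way of processing, 10 of them higher and 16 lower, and 11 turned: Ears2, Fars2, Farsa, Hars, Hars2, Iars, Iars2, Mars, Pars2, Tars and Vars2. Every other scaling, normexp correction and no background subtraction moved the median of all genes down, by −0.028 to −0.20. Lower genes were thus less likely to turn, and their kept sign is the weaker result where a change lowers every gene. Changes that depend on signal moved some lower genes up, such as Gars from −0.32 to −0.14 with quantile normalization. No member was past 2-fold in every way of processing. Wars, with 11 of 12, and Cars, with 9 of 11, were past it most often. Both counts include changes of the filter on dim probes, which cannot alter the value of a probe.

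**Figure D5:**
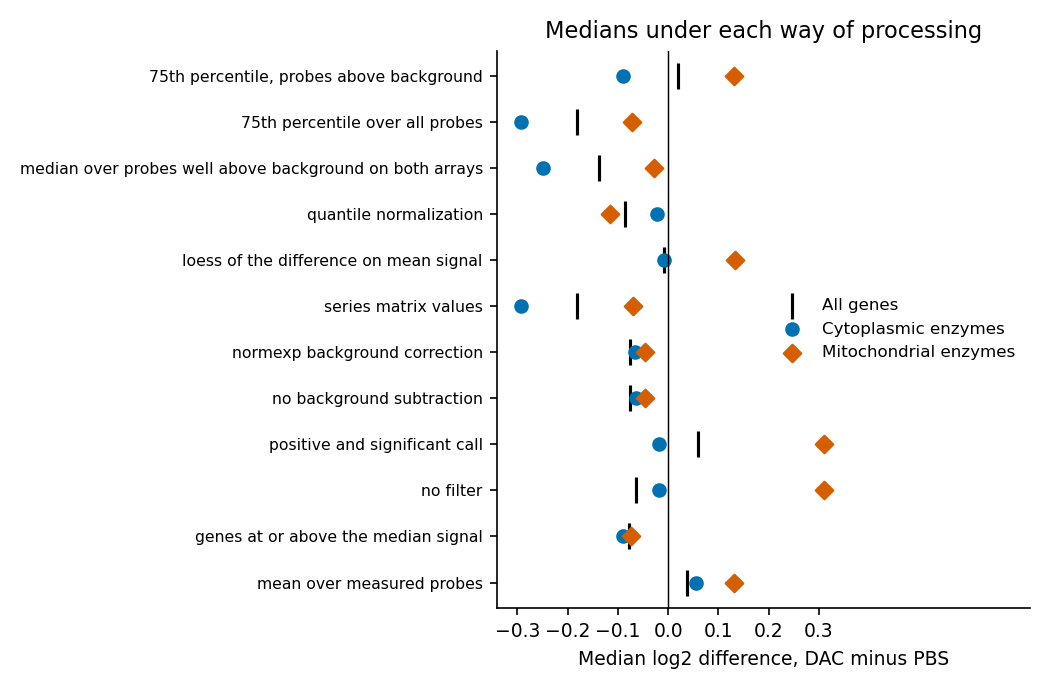
The median log2 difference DAC minus PBS of all measured genes (bar), the cytoplasmic enzymes (circle) and the mitochondrial enzymes (diamond) is plotted for each of 12 ways of processing. Scaling over all probes shifts all 3 medians by −0.20. The cytoplasmic median lies below the mitochondrial one in 11 of 12, and quantile normalization puts it above. The 11 are not separate checks: scaling over all probes, by the median or with the series matrix values cannot change the gap of −0.22. The looser filters on dim probes share −0.33. With normexp correction, no background subtraction and the brighter genes the gap is −0.019 or −0.016.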

How the data were processed

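LSK cells were profiled on Agilent 1-colour arrays, 1 per group. Per the file headers, the scanner software was Agilent Feature Extraction 10.7.3.1 (protocol GE1_107_Sep09, build mm9). The authors deposited a processed intensity per spot, background-subtracted and not normalized between arrays. The deposited series matrix holds log2 values with column medians of 0; the difference between its columns had slope 1.00 and offset −0.60 against the log2 processed intensity, and the baseline of each probe stays unknown, so it was used for differences only.

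Repeated spots of a probe were averaged as log2 values, and the probe counted as well above background when 50% or more of them did. Each array was scaled to its 75th percentile, taken over 25404 probes that passed this call on both arrays. The probe with the highest mean signal stood for a gene. No test was possible with 1 array a group: differences were counted at 2-fold, and a gene well above background on 1 array got a bound against the higher of its signal and the lowest signal called above background on the other. The number of arrays limits the precision.

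Names came from the files and a GRCm38.p6 table, with 24461 probes keeping the name in the file. The place of a probe in coding or untranslated sequence was not analysed here. Named were every member and, in lists other than the cell markers, genes past 2-fold or with such a bound. Atf4, Asns, Eif2ak4 and Trdmt1 were named too. Further genes (Eef1a1 and some cell markers) were added after their values were seen. Several cell markers past 2-fold or with such a bound are not named. The members and lists were chosen with earlier results of these data known. Computation used Python 3.11.15, pandas 2.3.3, statsmodels 0.14.6, and limma 3.58.1 in R 4.3.3, tested on simulated data. Alternatives changed the scaling, background treatment, filter on dim probes, fold threshold, class of Gars and Kars, and value per gene. The values of 1 member and 2 genes of other lists are not reported here, while counts and medians include them.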

Additional observations from a re-analysis of the deposited data

How the results depend on the processing

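No paired analysis was possible because there was 1 array per group, and no replicate could be left out. None of the 3 genes past 2-fold changed sign under any alternative. Of the members' 2 higher and 1 lower genes, scaling over all probes, by the median, with loess or with the series matrix values gave 1 higher and 2 lower; quantile normalization gave 1 and 4; normexp correction, no background subtraction and a restriction to the brighter genes (signal at least the median) gave 1 and 0; the mean over probes gave 1 and 1; the positive call and no filter gave 3 higher. At 1.5-fold there were 7 and 5. The members' median of 0.07 became −0.13 over all probes and with the series matrix values, −0.086 with median scaling, −0.12 with quantile normalization and −0.15 among the brighter genes, where 22 members were left. The cytoplasmic minus mitochondrial median of −0.22 became 0.093 with quantile normalization, −0.019 with normexp correction, and −0.016 both without background subtraction and among the brighter genes, and moved to −0.077 as the mean over probes or without Gars and Kars. The positive call and no filter gave −0.33. The causes were not tested, except that the brighter genes are fewer. Of 392 values of single genes under the alternatives 261 moved by less than the spot-level SD and 131 by more. Many of the 261 could not move. The positive call, no filter and the restriction to the brighter genes repeat each value kept. The mean over probes changes only genes with a second measured probe. The count of 261 is therefore not a measure of how stable the values are. For the 9 mitochondrial enzymes in the lowest tertile of the signal, Cars2 among them, the spot-level SD was 0.32.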

Other observations

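Other promoter letters were also searched on both strands in the 30 matched members. CCGGAAG, the core bound by ETS factors, was in 11 of them (5 cytoplasmic enzymes, 4 mitochondrial enzymes and 2 scaffold genes), beside 8.86% of all promoters. Among these were Cars2 (log2 difference 1.13), Rars2 (0.64), Sars (−0.50) and Mars2 (−0.70), so they lay on both sides of 0. CACGTG, the E-box that Myc and related factors bind, was in 4 cytoplasmic enzymes (Aars, Farsb, Iars and Tars) and 1 mitochondrial one (Ears2), beside 7.15% of promoters, with differences from −0.93 for Aars to 0.93 for Farsb. TATAAA was in 3 members (Aars2, Farsa and Tars2), beside 13.6% of promoters.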
